A study of Danio rerio with 18 samples.

Results

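Genes of the Wnt pathway, 6 in number, were followed through the hearts of adult zebrafish: the ligand gene wnt9b, the secreted Wnt inhibitor gene notum1b, the degradation scaffold gene axin1, the beta-catenin gene ctnnb1, and the target genes axin2 and lef1. They are 6 of the 32520 gene identifiers in both count tables, found by matching the gene symbol without regard to case, and each matched 1 identifier. All 6 passed the filter on low counts. The genes were chosen by their measured levels and fold changes in these libraries, and the contrast that singled them out is not recorded. Every comparison therefore counts as used in the choice, and the values of the 6 genes are a description with no p-value.

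Wnt ligands are lipid-modified secreted proteins that bind Frizzled receptors together with LRP co-receptors. Without a ligand, a complex built on Axin, APC and the kinase GSK3 marks beta-catenin for degradation; with a ligand, beta-catenin accumulates and acts with LEF/TCF factors on target genes. Axin2 is both a target and an inhibitor, which closes a negative feedback loop, and Notum is a secreted enzyme that removes the lipid from Wnt proteins. In the embryonic zebrafish heart, wnt9b is known from the endocardium of the forming valves.

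RNA of cardiac ventricles was sequenced in 15 libraries, 3 in each of 5 groups. In 4 groups the fish carried cmcl2:Gal4-ERT2, a tamoxifen-inducible driver active in cardiomyocytes, with UAS:RFP, a red fluorescent protein, or with UAS:GFP-HRAS, the oncogene HRAS joined to a green fluorescent protein. All 4 received 4 overnight pulses of 2.5 uM 4-hydroxytamoxifen (4-OHT) and, over 16 days, 0.05% DMSO as vehicle or 0.5 uM rapamycin, which inhibits TOR, a kinase of growth control. They are called RFP DMSO, RFP rapamycin, HRAS DMSO and HRAS rapamycin. The other group, 7 dpci, carried the driver without a UAS transgene, received no drug, and was sampled 7 days after cryoinjury, in which part of the ventricle is frozen and then regrows. Its counts come from the other of the 2 tables, so injury, strain, 4-OHT, vehicle and table cannot be told apart in any comparison with it. The labels give no age beyond adult and do not give how many fish went into a library or whether libraries were independent, so p-values measure only the spread between these libraries. Uninjured hearts were not analysed here.

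Library totals ran from 15861618 to 20003711 counts. The symbol HRAS belongs to 2 zebrafish genes, and reads of the transgene may or may not fall on them: ENSDARG00000098497 ran from 6.21 to 8.32 CPM (counts scaled to library size) in HRAS DMSO and from 1.35 to 1.99 in RFP DMSO, while ENSDARG00000005651 ran from 3.81 to 8.72 and from 15.1 to 20.4. Cardiomyocyte markers were abundant in every library, with a sum over 10 genes of 21300 to 27200 CPM in HRAS DMSO and 40200 to 61700 in the other groups. A single library stood apart: on the component that held 64.7% of the variance of the variable genes, HRAS rapamycin replicate 3 lay at -11.9, against 44.5 and 32.8 for the other two of its group and -48.7 to -60.6 for the RFP libraries. Fold changes or calls without it are given beside those of the 6 genes and the named list genes in that group. They are not given for cell type markers or ctnnb2, whose values in that group include this library.

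Levels in CPM use library sizes corrected by trimmed-mean (TMM) factors and are compared between groups within a gene, never between genes. A log2 fold change and its standard error (SE) come from edgeR's quasi-likelihood fit across all genes, and a gene was called at a Benjamini-Hochberg adjusted p under 0.05. In whole ventricles, fewer cells of a type and less RNA per cell cannot be told apart.

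The ligand gene wnt9b (ENSDARG00000037889) was close to undetected without HRAS and present in all 6 HRAS libraries. Its raw counts were 0, 1 and 0 in RFP DMSO, 2, 0 and 0 in RFP rapamycin, and 0, 2 and 2 in 7 dpci. They were 28, 51 and 53 in HRAS DMSO and 120, 227 and 75 in HRAS rapamycin. The HRAS groups did not overlap any other group, and every HRAS rapamycin library lay above every HRAS DMSO library.

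In levels, wnt9b stood at 1.28, 2.09 and 2.11 CPM in HRAS DMSO, with a mean of 1.83 ± 0.475 (SD, n = 3). In HRAS rapamycin it stood at 5.99, 15.1 and 4.58 CPM, with a mean of 8.57 ± 5.74 (SD, n = 3), so its replicate 2 was far above the other two. The summed counts were 132 in HRAS DMSO and 1 in RFP DMSO, a ratio of 92.08 after scaling with a 95% counting interval of 16.24 to 3664. Under rapamycin they were 422 and 2, a ratio of 192.2 with an interval of 52.89 to 1593; such intervals cover counting error only. The gene was called higher in HRAS in both treatments, under rapamycin also without HRAS rapamycin replicate 3. Between the treated and untreated HRAS hearts it was called higher with rapamycin, with a log2 fold change of 2.22 ± 0.572 (SE). That call was lost without HRAS DMSO replicate 1, 2 or 3 or HRAS rapamycin replicate 2, with log2 fold changes from 1.53 to 2.34, and without HRAS rapamycin replicate 3 the value was 2.53.

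At 7 dpci, wnt9b had 4 counts in all, a ratio of 3.453 to RFP DMSO with an interval of 0.3417 to 170. Against HRAS DMSO it was called lower at 7 dpci, with a log2 fold change of -4.58 ± 0.817 (SE), and against HRAS rapamycin with -6.8 ± 0.82 (SE), or -7.1 without HRAS rapamycin replicate 3. In order of mean level, HRAS rapamycin came before HRAS DMSO, and these before 7 dpci, RFP rapamycin and RFP DMSO, whose ranges overlapped between neighbours. The summed level of 9 markers of endothelium and endocardium ran from 538 to 632 CPM in HRAS DMSO and from 954 to 1320 in HRAS rapamycin. It ran from 1940 to 2180 CPM in RFP DMSO, from 1650 to 1920 in RFP rapamycin and from 1550 to 1740 at 7 dpci. None of these markers was at 0 in a whole group, and their part in the wnt9b values was not tested.

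**Figure D1:**
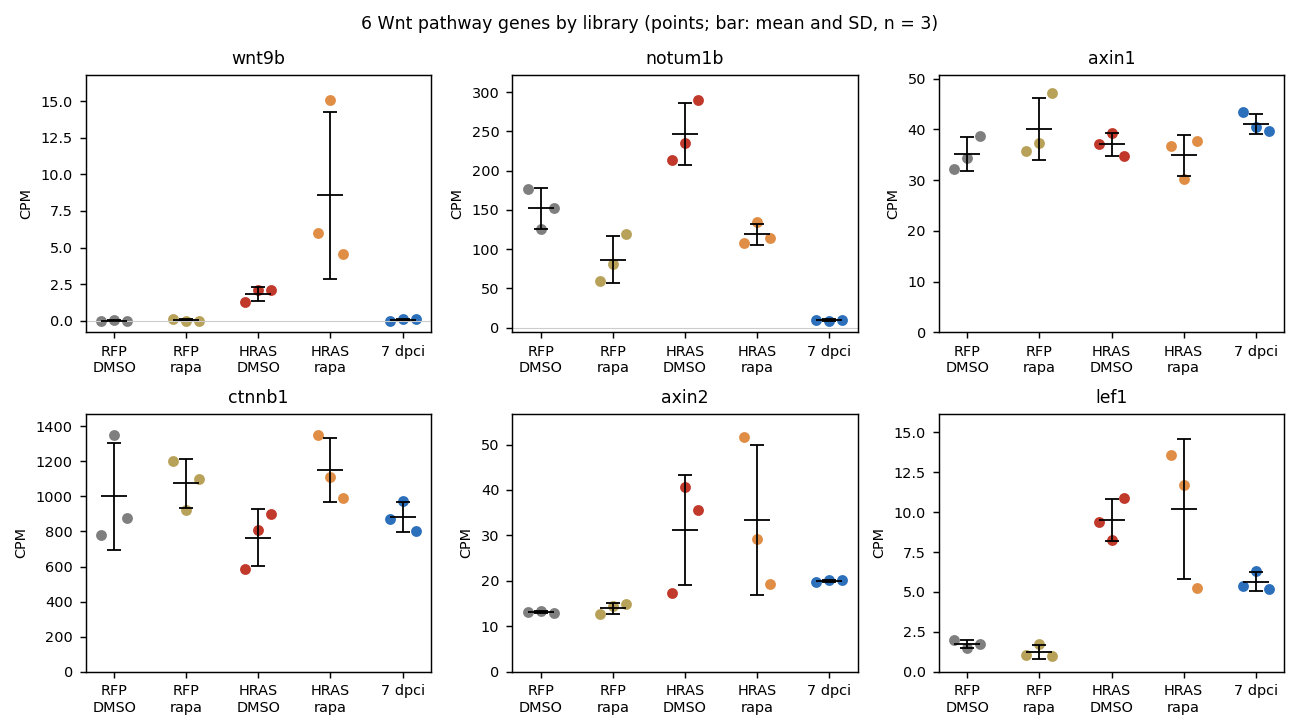
Levels of the 6 genes in CPM (vertical axes, linear, each with its own scale that includes 0) in 5 groups. Points are libraries in the order of replicates 1 to 3, and bars are the mean and SD (n = 3). The wnt9b libraries of HRAS lie between 1.28 and 15.1 CPM and all others near 0, notum1b lies between 7.92 and 10.1 CPM at 7 dpci, and axin1 overlaps between neighbouring groups in order of mean.

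The secreted inhibitor gene notum1b (ENSDARG00000117145) was highest in HRAS DMSO, lower in each line's rapamycin libraries than in its DMSO libraries, and lowest at 7 dpci. In RFP DMSO it stood at 177, 126 and 152 CPM and in RFP rapamycin at 59.5, 81 and 119 CPM. In HRAS DMSO it stood at 214, 235 and 290 CPM and in HRAS rapamycin at 108, 134 and 114 CPM. At 7 dpci it stood at 10.1, 7.92 and 9.63 CPM. HRAS DMSO lay above every other group and 7 dpci below every other group, while HRAS rapamycin overlapped both RFP groups.

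The mean of notum1b was 152 ± 25.6 CPM in RFP DMSO and 247 ± 39.1 CPM in HRAS DMSO (SD, n = 3), and the gene was called higher in HRAS, with a log2 fold change of 0.71 ± 0.245 (SE). The call was lost without RFP DMSO replicate 2 or 3 or HRAS DMSO replicate 2 or 3, with values from 0.57 to 0.74. With rapamycin the means were 86.5 ± 30 CPM in RFP and 119 ± 13.9 CPM in HRAS (SD, n = 3), and the log2 fold change of 0.46 ± 0.245 (SE) was not called; without RFP rapamycin replicate 3 it was 0.76 and called, and without HRAS rapamycin replicate 3 it was 0.48.

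Between rapamycin and DMSO, notum1b was called lower in HRAS and not called in RFP. In HRAS the log2 fold change was -1.06 ± 0.247 (SE), and it was not called without HRAS DMSO replicate 2 or 3 or HRAS rapamycin replicate 2 or 3, with values from -1.14 to -0.92. In RFP it was -0.81 ± 0.246 (SE) with no overlap of the libraries, and it was not called. The difference between the 2 rapamycin effects was -0.25 ± 0.345 (SE, log2), or -0.21 without HRAS rapamycin replicate 3, and was not called. At 7 dpci the mean was 9.21 ± 1.13 CPM (SD, n = 3), with a called log2 fold change of -4.04 ± 0.259 (SE) against RFP DMSO, -4.74 ± 0.267 against HRAS DMSO and -3.69 ± 0.255 against HRAS rapamycin, or -3.71 without HRAS rapamycin replicate 3.

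The scaffold gene axin1 (ENSDARG00000102964), whose protein holds the degradation complex together, varied little. It stood at 32.3, 34.4 and 38.8 CPM in RFP DMSO and at 35.8, 37.3 and 47.1 CPM in RFP rapamycin. It stood at 37.1, 39.3 and 34.7 CPM in HRAS DMSO, at 36.8, 30.2 and 37.7 CPM in HRAS rapamycin, and at 43.4, 40.4 and 39.6 CPM at 7 dpci. Group means ran from 34.9 ± 4.05 CPM in HRAS rapamycin to 41.1 ± 2.01 CPM at 7 dpci (SD, n = 3), and no pair of neighbours in that order was apart. The 7 dpci libraries all lay above those of RFP DMSO, HRAS DMSO and HRAS rapamycin, by log2 fold changes of 0.15 to 0.24, none of them called; with library totals the value against HRAS DMSO was -0.19. Without HRAS rapamycin replicate 3 the value against that group was 0.3. The HRAS effect was 0.08 ± 0.161 (SE, log2) in DMSO and -0.2 ± 0.161 in rapamycin, or -0.26 without that library, none called. The value in DMSO rests on the scaling: with library totals in place of TMM factors it was 0.54 and called higher, and the rapamycin effect in HRAS moved from -0.09 to -0.54 and was called lower. Without HRAS rapamycin replicate 3 that rapamycin effect was -0.14.

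The beta-catenin gene ctnnb1 (ENSDARG00000014571), which encodes the transducer of the pathway and a component of cell junctions, was called in no comparison. It stood at 778, 1350 and 875 CPM in RFP DMSO and at 1200, 924 and 1100 CPM in RFP rapamycin. It stood at 587, 809 and 901 CPM in HRAS DMSO, at 1350, 1110 and 993 CPM in HRAS rapamycin, and at 873, 973 and 801 CPM at 7 dpci. Each neighbour in the order of means overlapped the next, from 766 ± 161 CPM in HRAS DMSO to 1150 ± 181 CPM in HRAS rapamycin (SD, n = 3). The HRAS effect in DMSO was -0.38 ± 0.243 (SE, log2), and 0.09 with library totals, so its sign turned on the scaling. The rapamycin effect in HRAS was 0.58 ± 0.244 (SE, log2), with all rapamycin libraries above the DMSO libraries, and was not called. Against HRAS rapamycin the 7 dpci libraries all lay lower, by -0.38 ± 0.223 (SE, log2), not called. Without HRAS rapamycin replicate 3 these were 0.69 and -0.48, and the HRAS effect in rapamycin, 0.1 ± 0.243 (SE, log2), was 0.19.

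Zebrafish have a paralogue, ctnnb2, which is not among the 6 genes but belongs to the list of 116 other Wnt genes described further on. Its level differed between the groups where that of ctnnb1 was not called. It stood at 152, 95.4 and 104 CPM in RFP DMSO and at 329, 639 and 611 CPM in HRAS DMSO. The change was called, with a log2 fold change of 2.17 ± 0.362 (SE) and an edgeR adjusted p of 0.000992 over all genes. With rapamycin it stood at 114, 125 and 162 CPM in RFP and at 496, 311 and 197 CPM in HRAS, and at 7 dpci at 203, 204 and 192 CPM.

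As a share of the counts of both genes, ctnnb2 took 11.2% ± 4.94 in RFP DMSO, 11.1% ± 2.15 in RFP rapamycin and 40.1% ± 4.11 in HRAS DMSO (SD, n = 3). It took 21.8% ± 5.15 in HRAS rapamycin and 18.5% ± 1.1 at 7 dpci. The HRAS DMSO libraries, at 35.9% to 44.1%, lay above all others, the next being HRAS rapamycin replicate 1 at 26.9%. The paralogues are similar, so reads could be split between them, and both levels are uncertain to that extent.

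**Figure D2:**
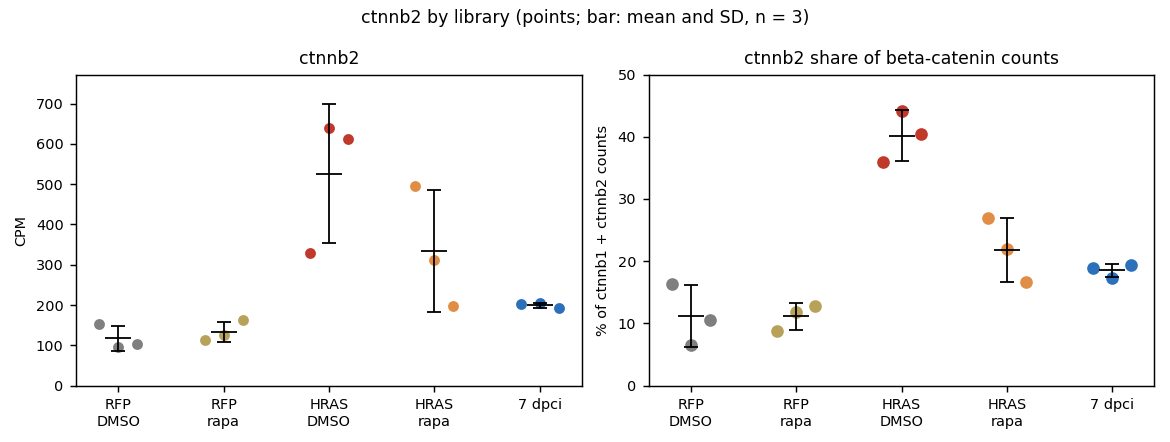
Left, ctnnb2 in CPM; right, ctnnb2 as a percentage of the counts of ctnnb1 and ctnnb2 together, both on linear axes from 0, in 5 groups. Points are libraries and bars are the mean and SD (n = 3); the HRAS DMSO shares of 35.9% to 44.1% lie above all others.

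The target gene axin2 (ENSDARG00000100149), a feedback inhibitor and common readout of the pathway, was higher in HRAS in both treatments, with a wide spread inside the HRAS groups. In RFP DMSO it stood at 13.1, 13.3 and 13 CPM and in RFP rapamycin at 12.6, 14.4 and 14.9 CPM. In HRAS DMSO it stood at 17.4, 40.6 and 35.5 CPM and in HRAS rapamycin at 51.6, 29.2 and 19.3 CPM. At 7 dpci it stood at 19.8, 20.1 and 20.2 CPM. Every HRAS library lay above every RFP library, and the 7 dpci libraries lay above RFP and inside the range of HRAS.

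The mean of axin2 was 13.1 ± 0.125 CPM in RFP DMSO and 31.2 ± 12.2 CPM in HRAS DMSO (SD, n = 3), a called log2 fold change of 1.25 ± 0.358 (SE). Without HRAS DMSO replicate 2 it was 1.02 and not called. With rapamycin the means were 14 ± 1.22 and 33.4 ± 16.6 CPM (SD, n = 3), a called log2 fold change of 1.26 ± 0.358 (SE). This call was lost without any one of the RFP rapamycin libraries or HRAS rapamycin replicate 1 or 2, with values from 0.8 to 1.34; without HRAS rapamycin replicate 3, it was 1.53 and called. Rapamycin changed axin2 by 0.09 ± 0.356 (SE, log2) in RFP and 0.1 ± 0.35 in HRAS, neither called; without HRAS rapamycin replicate 3 the latter was 0.38. At 7 dpci the mean was 20 ± 0.176 CPM (SD, n = 3), and the log2 fold change against RFP DMSO of 0.61 ± 0.325 (SE) was not called although the libraries did not overlap. Against HRAS DMSO it was -0.64 ± 0.322 (SE, log2) and against HRAS rapamycin -0.74 ± 0.322, neither called; they were called at -1 with library totals and -0.88 without HRAS DMSO replicate 1, and at -1.01 without HRAS rapamycin replicate 3.

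The gene of the nuclear factor lef1 (ENSDARG00000031894), which binds beta-catenin at target genes and is itself a target, was several times higher in HRAS than in RFP. In RFP DMSO it stood at 1.96, 1.47 and 1.71 CPM and in RFP rapamycin at 1.02, 1.73 and 0.979 CPM. In HRAS DMSO it stood at 9.41, 8.23 and 10.9 CPM and in HRAS rapamycin at 13.6, 11.7 and 5.26 CPM. At 7 dpci it stood at 5.37, 6.31 and 5.2 CPM. The RFP libraries lay below all others, and the HRAS rapamycin library that stood apart, replicate 3, was at the level of 7 dpci.

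The mean of lef1 was 1.71 ± 0.246 CPM in RFP DMSO and 9.52 ± 1.35 CPM in HRAS DMSO (SD, n = 3), a called log2 fold change of 2.48 ± 0.364 (SE). With rapamycin the means were 1.24 ± 0.422 and 10.2 ± 4.37 CPM (SD, n = 3), a called log2 fold change of 3.02 ± 0.376 (SE), or 3.33 without HRAS rapamycin replicate 3. Rapamycin changed lef1 by 0.1 ± 0.333 (SE, log2) in HRAS, or 0.42 without that library, and by -0.44 ± 0.377 in RFP, none called. At 7 dpci the mean was 5.62 ± 0.596 CPM (SD, n = 3), called higher than RFP DMSO with a log2 fold change of 1.71 ± 0.331 (SE). Against HRAS DMSO the log2 fold change was -0.76 ± 0.308 (SE) and not called, with all 7 dpci libraries below those of HRAS DMSO; with library totals it was -1.11 and called. Against HRAS rapamycin it was -0.86 ± 0.31 (SE, log2) and not called; it was called at -0.87 by DESeq2 and at -1.17 without HRAS rapamycin replicate 3.

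Markers of white blood cells moved with some of these groups, and since lef1 is also known from lymphocytes, their values are given beside it. The summed level of 10 leukocyte markers ran from 92.6 to 296 CPM in RFP DMSO and from 119 to 163 in RFP rapamycin. It ran from 3310 to 4950 CPM in HRAS DMSO, 155 to 427 in HRAS rapamycin and 1150 to 1190 at 7 dpci. Most of the sum in HRAS DMSO came from cd74a and cd74b, with means of 2810 and 664 CPM. Of the 7 tested, 6 rose with HRAS in DMSO and 0 fell, where 24.9% of all genes were called higher and 22.6% lower. MPEG1 (ENSDARG00000043093) had a mean of 32.8 ± 39.2 CPM in RFP DMSO (SD, n = 3), with libraries from 6.6 to 77.9. In HRAS DMSO its mean was 20.1 ± 2.12 CPM (SD, n = 3), inside that range. Of the T cell markers, lck had 3 counts in all, in HRAS DMSO, and was not tested, and 1 of 3 MPEG1 genes was at 0 throughout. ZAP70, the other T cell marker, had means of 0.316 CPM in RFP DMSO, 0.462 in RFP rapamycin, 21.6 in HRAS DMSO, 1.16 in HRAS rapamycin and 1.87 at 7 dpci. It rose with HRAS in DMSO by 6.11 ± 0.807 (SE, log2; edgeR adjusted p = 0.000388) and fell with rapamycin in HRAS, by -4.21 ± 0.701 (edgeR adjusted p = 0.0074). Between HRAS DMSO and HRAS rapamycin, 5 of the 7 leukocyte markers tested fell and none rose, and lef1 stood at 9.52 and 10.2 CPM. Of all genes, 6.3% were called lower there and 5.83% higher. With HRAS in rapamycin, 2 of the 7 rose and 0 fell, where 10.4% of all genes were called higher and 7.71% lower. The median log2 fold change of the 7 was 1.27, and lef1 was called higher with a log2 fold change of 3.02. The sum over 12 markers of epicardium and fibroblasts ran from 658 to 1300 CPM in RFP DMSO and from 699 to 854 in RFP rapamycin. It ran from 1830 to 3390 CPM in HRAS DMSO, from 1120 to 2910 in HRAS rapamycin and from 7690 to 8780 at 7 dpci, with none at 0 in a whole group. FN1 (ENSDARG00000006526) had the largest mean of the 12 in every group, with 827 CPM in RFP DMSO and 1110 in HRAS DMSO. PDGFRA went the other way, from 52.1 to 9.58 CPM, and TCF21 had 1.9 and 1.31 CPM. Of these 12 markers, 7 rose and 1 fell with HRAS in DMSO, and 4 rose and 1 fell with HRAS in rapamycin. The sum over 9 smooth muscle markers ran from 179 to 233 CPM in RFP DMSO, 181 to 293 in RFP rapamycin, 1190 to 3240 in HRAS DMSO, 665 to 3080 in HRAS rapamycin and 591 to 675 at 7 dpci. TAGLN (ENSDARG00000045408) had the largest mean of them in HRAS DMSO, 1560 CPM, and in HRAS rapamycin, 870 CPM (libraries from 57.8 to 1940). Its mean was 5.29 CPM in RFP DMSO and 152 at 7 dpci. Of the 8 smooth muscle markers tested, 6 rose with HRAS in DMSO, 5 rose with HRAS in rapamycin and none fell in either. Of all genes, 24.9% were called higher with HRAS in DMSO and 10.4% in rapamycin. In both comparisons wnt9b, axin2 and lef1 were called higher too. At 7 dpci, 6 smooth muscle markers were called higher than in RFP DMSO and 0 lower, where 18.8% of all genes were called higher and 17.7% lower. There lef1 was called higher, axin2 was not called, and wnt9b had 4 counts in all. Against HRAS DMSO, 0 of these markers were called higher at 7 dpci and 4 lower, where 13.3% of all genes were called higher and 15.5% lower. There wnt9b was called lower, and axin2 and lef1 were not called. Against HRAS rapamycin, 0 markers were higher at 7 dpci and 1 lower, where 8.36% of all genes were called higher and 10.2% lower. The calls of wnt9b, axin2 and lef1 were the same there. With rapamycin in HRAS, 0 smooth muscle markers rose and 1 fell, wnt9b was called higher, and axin2 and lef1 were not called. In RFP DMSO, 1 MYH11 and 1 CNN1 gene were at 0. The part of these cell types in the levels of the 6 genes was not tested.

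**Figure D3:**
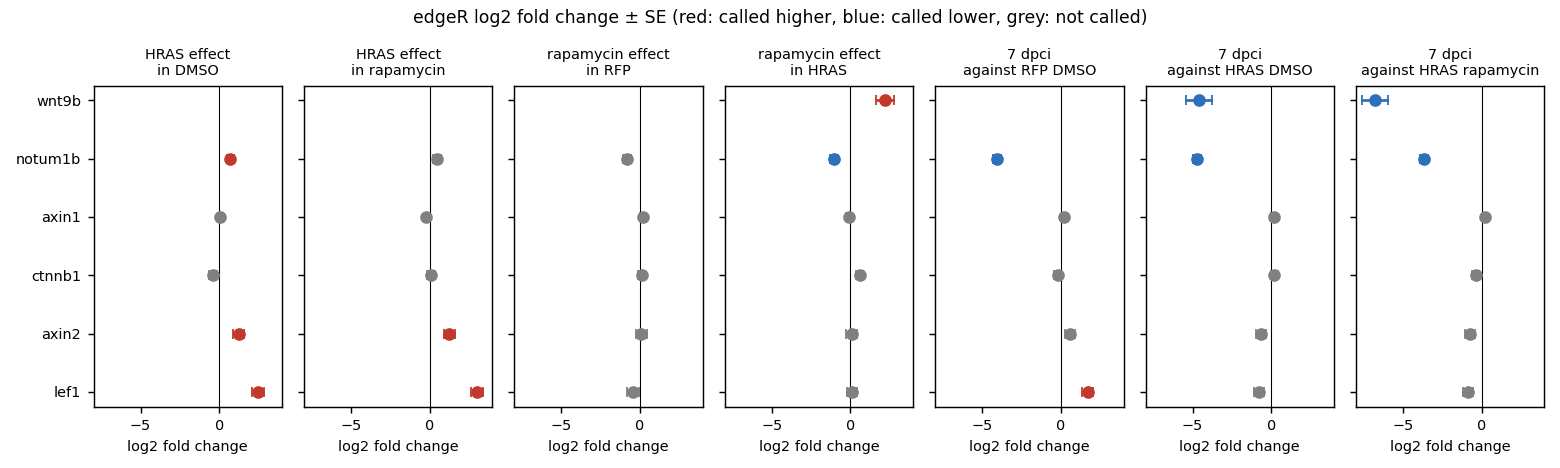
Log2 fold change (horizontal axes, the same in each panel) of the 6 genes in 7 comparisons from edgeR, with bars of 1 SE. Red points were called higher, blue points lower and grey points not called; wnt9b is left out where a group had at most 3 counts in all. The blue points of notum1b lie between -4.74 and -3.69 in the comparisons of 7 dpci, and axin1 and ctnnb1 are grey throughout.

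Counted over the 6 genes, 4 were called higher in HRAS with DMSO and none lower, where 24.9% of the 16044 genes tested were called higher and 22.6% lower, 47.5% in all. With rapamycin, 3 were called higher in HRAS, where 10.4% of genes were called higher and 7.71% lower, 18.1% in all. Rapamycin in HRAS had 1 called higher and 1 lower, where 5.83% of genes were called higher and 6.3% lower, 12.1% in all. At 7 dpci, 1 was called higher and 1 lower than in RFP DMSO, where 18.8% of 16421 genes were called higher and 17.7% lower, 36.4% in all. Against HRAS DMSO 2 were called lower, where 13.3% of genes were called higher and 15.5% lower, 28.8% in all. Against HRAS rapamycin 2 were called lower as well, where 8.36% of genes were called higher and 10.2% lower, 18.5% in all. Nothing is read from these counts, because the choice of the genes used the contrasts.

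The libraries of the compared groups did not overlap for 4 of the 6 genes in the HRAS effect in DMSO, as for 62.4% of all genes tested. They did not overlap for 3 in the HRAS effect in rapamycin, as for 33.1%, and for 1 and 3 in the rapamycin effects in RFP and HRAS, as for 11.1% and 34.6%. They did not overlap for 4 in each comparison of 7 dpci, as for 57.7% against RFP DMSO, 53.5% against HRAS DMSO and 40% against HRAS rapamycin. Several comparisons share a group: RFP DMSO, for instance, is the reference of the HRAS effect in DMSO and of a 7 dpci comparison.

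For rapamycin in RFP, edgeR called none of the 6 genes, with 0% of all genes called. At an unadjusted p under 0.05 it had 787 of all genes, while DESeq2 called 27 genes, none of the 6. The interaction of HRAS and rapamycin, which tests whether rapamycin acted differently in the 2 lines, was called for 0 of the 6 genes by edgeR, with 0.0499% of all genes called, 0.00623% positive and 0.0436% negative. At an unadjusted p under 0.05 it had 2303 genes, and DESeq2 called 519, 0 of the 6.

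The rest of the pathway was described through a list of 116 genes without the 6, sorted by role; 81 of them passed the filter. HRAS with DMSO raised 18 and lowered 15 of these 81, which is 40.7% against 47.5% of all genes, and the median log2 fold change was -0.03 against 0.02 over all genes. With library totals the split was 27 higher and 8 lower. The direction of the list as a whole thus rested on the scaling, which moved the median of all genes by 0.462 on the log2 scale.

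Among the 10 other ligand genes tested, HRAS with DMSO had 2 higher and 1 lower. WNT9A, of the same ligand family as wnt9b, was at 0 counts in all RFP DMSO libraries and at 0.411, 0.574 and 1.67 CPM in HRAS DMSO, at least 15.11-fold higher against a floor of 3 counts over the group, with an edgeR adjusted p of 0.00399. WNT10A stood at 0.0653, 0.183 and 0.11 CPM in RFP DMSO and at 0.822, 2.74 and 1.91 CPM in HRAS DMSO, a log2 fold change of 3.86 ± 0.713 (SE; edgeR adjusted p = 0.00163). The groups did not overlap for either gene. WNT5B, a ligand known mainly for signalling without beta-catenin and named here after its values were seen, fell by 1.35 on the log2 scale, from 12.4 ± 0.633 to 4.86 ± 0.38 CPM (SD, n = 3). PORCN (ENSDARG00000052455), the acyltransferase that adds the lipid Notum removes, was also named after its values were seen; its mean was 1.76 ± 0.155 CPM in RFP DMSO and 7.41 ± 2.33 in HRAS DMSO (SD, n = 3), and it rose by a log2 value of 2.08 ± 0.313 (SE; edgeR adjusted p = 0.000637).

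Of the 17 receptor and co-receptor genes tested, 2 rose and 4 fell in HRAS with DMSO. The Frizzled receptor gene FZD3 (ENSDARG00000021664) stood at 27.8, 37.8 and 63.6 CPM in RFP DMSO and at 10.6, 4.92 and 7.02 CPM in HRAS DMSO, a log2 fold change of -2.51 ± 0.479 (SE; edgeR adjusted p = 0.0019). Of 12 genes listed as secreted modulators, 3 rose and 2 fell. That role also holds the membrane receptor genes LGR4 and KREMEN1, which are not in the receptor count. The mean of LGR4 was 149 ± 12.4 CPM in RFP DMSO and 41.4 ± 1.74 in HRAS DMSO (SD, n = 3). RSPO3, whose protein enhances Wnt signalling at the receptor, stood at 2.94, 0.673 and 1.1 CPM in RFP DMSO and at 9.18, 9.67 and 11.1 CPM in HRAS DMSO, with no overlap; its log2 fold change was 2.68 ± 0.45 (SE; edgeR adjusted p = 0.00102). DKK3 (ENSDARG00000103591), of the Dickkopf family of secreted proteins, had a mean of 0.309 ± 0.146 CPM in RFP DMSO and 2.29 ± 0.876 in HRAS DMSO (SD, n = 3). It rose by 2.88 ± 0.629 (SE, log2; edgeR adjusted p = 0.00382). Of 13 genes of the degradation complex and Dishevelled, 2 rose and 1 fell.

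Of the 14 nuclear effectors, 4 rose and 5 fell in HRAS with DMSO, ctnnb2 among those that rose. TCF7, a LEF/TCF factor prominent in T cells, stood at 0.457, 0.611 and 0.221 CPM in RFP DMSO and at 8.22, 7.33 and 2.67 CPM in HRAS DMSO, a log2 fold change of 3.82 ± 0.53 (SE; edgeR adjusted p = 0.000455). Of 13 feedback and target genes, 4 rose and 2 fell. The adhesion receptor gene cd44b had a mean of 1.95 ± 0.761 CPM in RFP DMSO and 14 ± 6.18 in HRAS DMSO (SD, n = 3), and rose by 2.84 ± 0.505 (SE, log2; edgeR adjusted p = 0.00135). The receptor gene TNFRSF19, a target of the pathway, stood at 17.9, 13.3 and 19.6 CPM in RFP DMSO and at 2.42, 2.09 and 0.718 CPM in HRAS DMSO, a log2 fold change of -3.28 ± 0.412 (SE; edgeR adjusted p = 0.000344). SP5, a transcription factor and target, fell by 2.75 on the log2 scale (SE 0.886, edgeR adjusted p = 0.0247), from 0.884 ± 0.427 to 0.126 ± 0.0798 CPM (SD, n = 3). Its call was lost with library totals and without RFP DMSO replicate 2 or 3 or HRAS DMSO replicate 1 or 2, at adjusted p from 0.0538 to 0.0883. Among the targets named here, axin2, lef1 and cd44b were called higher, and TNFRSF19 and SP5 lower. The naming rule took the largest fold changes. It named the 2 list targets that fell but, of the 4 that rose, only cd44b.

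**Figure D4:**
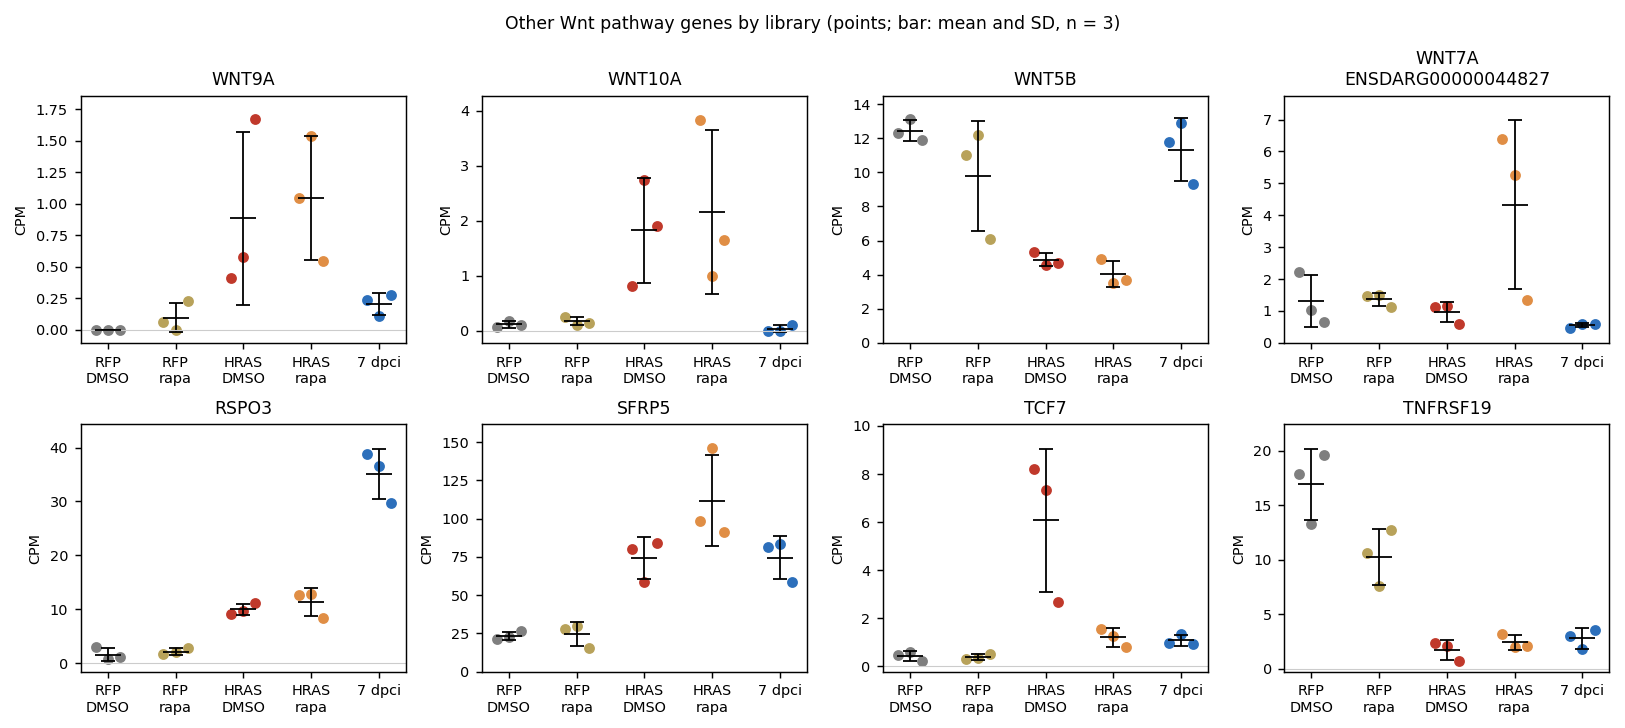
Levels in CPM (vertical axes, linear) of 8 other Wnt pathway genes in 5 groups. Points are libraries and bars are the mean and SD (n = 3). WNT9A and WNT10A are higher in the HRAS groups than in RFP, RSPO3 is at 29.8 to 38.9 CPM at 7 dpci, TCF7 is highest in HRAS DMSO, and TNFRSF19 is at 7.6 to 19.6 CPM in RFP and at most 3.61 elsewhere.

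With rapamycin, HRAS raised 8 and lowered 6 of the 81 list genes, which is 17.3% against 18.1% of all genes, and the median was 0.14 against 0 over all genes. Without HRAS rapamycin replicate 3 the count was 25, and without RFP rapamycin replicate 1 or 2 or HRAS rapamycin replicate 1 or 2 it was 9, 5, 6 and 6. The number of all genes called changed too, from 2909 with every library to 4864 without HRAS rapamycin replicate 3. WNT10A stood at 0.256, 0.112 and 0.151 CPM in RFP rapamycin and at 3.84, 1 and 1.65 CPM in HRAS rapamycin, a log2 fold change of 3.61 ± 0.69 (SE; edgeR adjusted p = 0.00824). SFRP5, a secreted Frizzled-related inhibitor, stood at 28.2, 29.6 and 15.4 CPM and at 98.3, 146 and 91.1 CPM, a log2 fold change of 2.19 ± 0.276 (SE; edgeR adjusted p = 0.00171). These groups did not overlap.

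RSPO3 rose with HRAS under rapamycin too, by 2.42 ± 0.443 (SE, log2; edgeR adjusted p = 0.00693), and TNFRSF19 changed by -2.07 ± 0.398 (edgeR adjusted p = 0.00841). WNT9A had means of 0.0966 ± 0.116 CPM in RFP rapamycin and 1.04 ± 0.492 in HRAS rapamycin (SD, n = 3) and was called, with a log2 fold change of 3.46 ± 0.968 (SE; edgeR adjusted p = 0.0381). This call was lost without RFP rapamycin replicate 1 or 2 or HRAS rapamycin replicate 1 or 2, at adjusted p from 0.097 to 0.116. Without HRAS rapamycin replicate 3 the log2 fold changes were 3.78 for WNT10A, 2.32 for SFRP5, 2.6 for RSPO3, -1.97 for TNFRSF19 and 3.76 for WNT9A, all called. No receptor gene of the 17 was called by edgeR with all libraries in that comparison.

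**Figure D5:**
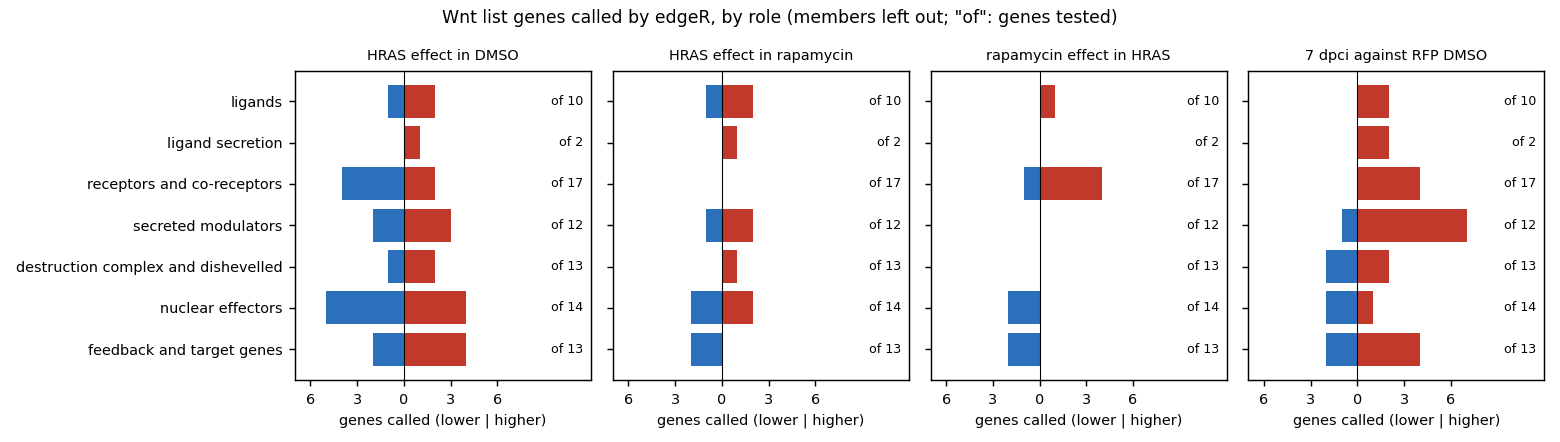
Number of Wnt list genes called by edgeR, by role, in 4 comparisons. Red bars to the right count genes called higher, blue bars to the left genes called lower, and the number after "of" is how many were tested. At 7 dpci, 7 of 12 genes listed as secreted modulators were called higher than in RFP DMSO and 1 lower. That role includes the membrane receptor genes LGR4 and KREMEN1.

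Rapamycin in HRAS hearts had 5 list genes higher and 5 lower of 81, which is 12.3% against 12.1% of all genes, with a median of 0.25 against 0.01. With library totals the split was 0 higher and 11 lower, and the median of all genes moved by -0.451 on the log2 scale. The count fell to 1 without HRAS DMSO replicate 2 or HRAS rapamycin replicate 2 and to 2 without replicate 3 of either group. The number of all genes called fell as well, from 1947 to 866 without HRAS rapamycin replicate 3. TCF7 stood at 8.22, 7.33 and 2.67 CPM in HRAS DMSO and at 1.55, 1.27 and 0.795 CPM in HRAS rapamycin, a log2 fold change of -2.33 ± 0.479 (SE; edgeR adjusted p = 0.0147). It moved with the leukocyte markers given above, whose part was not tested; the call was lost without replicate 2 of either group, at adjusted p of 0.0577 and 0.0506, and without HRAS rapamycin replicate 3 the value was -2.09 and called.

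Calls of the other named genes of that comparison also rested on single libraries. WNT7A (ENSDARG00000044827), a ligand, stood at 1.14, 1.15 and 0.598 CPM in HRAS DMSO and at 6.39, 5.27 and 1.34 CPM in HRAS rapamycin, a log2 fold change of 2.16 ± 0.582 (SE; edgeR adjusted p = 0.0356). It was not called, at adjusted p from 0.052 to 0.118, with library totals or without any one library but HRAS rapamycin replicate 3, where the value was 2.6. The gene cd44b changed by -2.08 ± 0.485 (SE, log2; edgeR adjusted p = 0.0216), lost without HRAS DMSO replicate 1 or HRAS rapamycin replicate 2 or 3, at adjusted p from 0.0564 to 0.0707. FZD3 (ENSDARG00000021664) changed by 1.74 ± 0.468 (SE, log2; edgeR adjusted p = 0.0359), which was lost with library totals and without replicate 2 or 3 of either group, at adjusted p from 0.0613 to 0.13. Its paralogue under the same symbol (ENSDARG00000058692) changed the other way, by -1.65 ± 0.486 (edgeR adjusted p = 0.0479), which was lost with no filter and without any single library, at adjusted p from 0.0579 to 0.143.

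In RFP, rapamycin had 0 of the 81 list genes called by edgeR and by DESeq2, and 2 at an unadjusted p under 0.05. The interaction had 0 called by edgeR, 15 at an unadjusted p under 0.05 and 1 by DESeq2, the receptor gene FZD4, with a log2 value of 1.32 (DESeq2 adjusted p = 0.0387).

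At 7 dpci, 22 of the 81 list genes were higher than in RFP DMSO and 7 lower, which is 35.8% against 36.4% of all genes, with a median of 0.11 against 0.02. The count was 18 without RFP DMSO replicate 2 or 7 dpci replicate 3, and 19 without RFP DMSO replicate 3. Of the 12 genes listed as secreted modulators, 7 were higher and 1 lower. The membrane receptor gene LGR4, held in that role, had a mean of 47.1 CPM at 7 dpci and 149 in RFP DMSO. RSPO3 stood at 38.9, 36.6 and 29.8 CPM at 7 dpci, above every library of the other groups, with a log2 fold change of 4.49 ± 0.422 (SE; edgeR adjusted p = 5.99e-05) against RFP DMSO.

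SFRP1 (ENSDARG00000035521), a secreted Frizzled-related inhibitor, stood at 15.8, 14.4 and 13.8 CPM at 7 dpci and at 2.94, 0.734 and 1.43 CPM in RFP DMSO, a log2 fold change of 3.11 ± 0.421 (SE; edgeR adjusted p = 0.000316). DKK3 (ENSDARG00000070683) was higher by 3.09 ± 0.517 (SE, log2; edgeR adjusted p = 0.000887). The paralogue notum2 was at 3.07, 2.75 and 4.76 CPM at 7 dpci and at 0.457, 0 and 0.496 CPM in RFP DMSO, so its values were higher at 7 dpci where those of notum1b were lower. Its log2 fold change was 3.44 ± 1.13 (SE; edgeR adjusted p = 0.0303), and the call was lost without any single library of either group, at adjusted p from 0.0508 to 0.0968. WNT9A had 12 counts at 7 dpci and 0 in RFP DMSO, at least 3.453-fold higher against the floor of 3 counts over the group (edgeR adjusted p = 0.0298); it was lost without any one library but 7 dpci replicate 2, at adjusted p from 0.0552 to 0.0734. All 12 markers of epicardium and fibroblasts were called at 7 dpci, 11 of them higher, where 18.8% of all genes were called higher and 17.7% lower. These markers moved with the secreted modulators, and their part was not tested.

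Against HRAS DMSO, 17 list genes were higher at 7 dpci and 9 lower, which is 32.1% against 28.8% of all genes, with a median of 0.19 against -0.05. The count was 16 and 17 without 7 dpci replicates 1 and 2, and with library totals the split turned to 11 higher and 13 lower. WNT10A had 2 counts at 7 dpci and 133 in HRAS DMSO, a ratio of 53.74 with a counting interval of 14.59 to 448.4 (edgeR adjusted p = 0.00129). SOSTDC1 (ENSDARG00000068892), a secreted inhibitor of BMP and Wnt signalling, stood at 26.1, 26.1 and 29 CPM at 7 dpci and at 5.43, 2.54 and 2.15 CPM in HRAS DMSO, a log2 fold change of 3 ± 0.563 (SE; edgeR adjusted p = 0.00248). TCF7 was lower at 7 dpci by a log2 fold change of -2.49 ± 0.45 (SE; edgeR adjusted p = 0.00208).

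The adhesion receptor gene cd44a had 0 counts at 7 dpci and 37 in HRAS DMSO, at least 9.967-fold lower (edgeR adjusted p = 0.0391), and its call was lost without HRAS DMSO replicate 2 or 3 or any 7 dpci library, at adjusted p from 0.0733 to 0.108. The inhibitor gene sfrp2l was higher by 2.07 ± 0.682 (SE, log2; edgeR adjusted p = 0.0366). Library totals ended that call, as did leaving out replicates 1 or 2 of HRAS DMSO or 2 or 3 of 7 dpci, at adjusted p from 0.0619 to 0.0947.

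Against HRAS rapamycin, 11 list genes were higher at 7 dpci and 6 lower, which is 21% against 18.5% of all genes, with a median of 0.17 against -0.01; without HRAS rapamycin replicate 2 the count was 11, and without replicate 3 it was 23. WNT10A had a ratio of 66.8 in favour of HRAS rapamycin, with a counting interval of 18.09 to 558 (edgeR adjusted p = 0.00163). FZD9 (ENSDARG00000035185), a receptor, was higher at 7 dpci by 3.16 ± 0.413 (SE, log2; edgeR adjusted p = 0.000813), and WNT7A (ENSDARG00000044827) changed by -2.95 ± 0.57 (edgeR adjusted p = 0.00486). SFRP1 (ENSDARG00000035521) was higher by 2.62 ± 0.408 (SE, log2; edgeR adjusted p = 0.0016) and SOSTDC1 (ENSDARG00000068892) by 2.57 ± 0.555 (edgeR adjusted p = 0.00823). Without HRAS rapamycin replicate 3 these 4 values were 3.06, -3.37, 2.62 and 2.64, and all 4 genes and WNT10A were called.

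The genes whose levels ran most like those of each of the 6 were found by the Pearson correlation of log2 CPM over the 15 libraries, which share 5 groups, so that group differences dominate it. Nearest to wnt9b were LRATD1 (r = 0.96), HYAL1 (0.959) and CBARP (0.954), with means in CBARP of 4.52 CPM in HRAS DMSO and 9.4 CPM in HRAS rapamycin. Nearest to notum1b were TMUB1 (0.94), HMGB3 (0.933) and RNF175 (0.929). For axin2 they were TLN1 (0.966), VCL (0.962) and SEPTIN10 (0.96), where TLN1 and VCL encode talin and vinculin, which link integrins to actin. For lef1 they were PRC1 (ENSDARG00000005993; 0.973), ENSDARG00000090401, to which the gene table gives no symbol (0.968), and SPC25 (0.965), where PRC1 and SPC25 act in cell division. The likeness was lower for axin1, with GPR137C (0.838), CRBN (0.812) and MTRFR (0.81), and for ctnnb1, with si:ch211-200p22.4 (0.872), PKD2 (0.859) and ppp2r5ea (0.855).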

How the data were processed

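RNA of 15 ventricle libraries was analysed, 3 in each of 5 groups taken from the sample titles; the UR columns were taken as UAS:RFP. The authors deposited whole-number counts per gene in 2 tables, not normalized. Reads were handled with featureCounts 1.6.0, HISAT2 2.1.0 and, for molecular identifiers, UMI-tools 1.1.1, on build GRCz11, per the submitters' processing notes; the use of strand in counting is not given in the sources used here, so overlapping antisense genes may share reads. A gene table gave 29201 of 32520 identifiers a symbol, often in human style and shared by paralogues.

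The tests ran in edgeR 4.0.16 (R 4.3.3, limma 3.58.1): TMM scaling, the default filter by group, glmQLFit, glmQLFTest and Benjamini-Hochberg adjustment, called under 0.05. The 12 transgenic libraries were fitted together (16044 genes), and all 15 for the comparisons with 7 dpci (16421 genes). The SE is the absolute log2 fold change over the square root of F. Levels used the TMM factors of the fit of 15 libraries, and log2 CPM a prior count of 2. Folds against 0 counts are bounds at a floor of 3 counts over the group; against 1 to 3 counts the ratio has a 95% interval. Alternatives were library totals, DESeq2 1.42.0 and its size factors, no filter, a replicate block and each library left out.

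The 6 genes, the list and the rule for named genes were chosen with earlier results of these data known. The rule takes list genes called with no overlap of libraries, the 10 with the largest absolute log2 fold change for HRAS in DMSO and 5 in each other comparison, and the 3 nearest genes per member. Of the symbols in the list, 3 had no match, and 1 with more than 3 genes was left out. No 2 libraries of a group agreed within sampling noise (smallest chi-square per gene 17.733). On simulated counts, edgeR recovered 57.1% of genes changed by a log2 fold of 2 and 7% of those changed by 1 for HRAS in DMSO, and 58% and 12.5% for 7 dpci against RFP DMSO. Only 96 to 100 genes of each size were changed there, of 15642 and 15999 tested. In the data, 47.5% and 36.4% of genes were called in these comparisons. The adjusted threshold was therefore stricter in the simulation, and its shares are not the sensitivity of the calls given here.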

Additional observations from a re-analysis of the deposited data

How the results depend on the processing

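Over 536 values of the 6 genes under the alternatives, no called value changed sign and 508 moved by less than the spread between replicates; of 385 values of named list genes, 57 lost their call and none changed sign. With library totals, the HRAS effect in DMSO became 1.18 for notum1b, 6.54 for wnt9b, 1.74 for axin2, 2.94 for lef1, 0.54 for axin1 and 0.09 for ctnnb1 (all log2). The rapamycin effect became -1.52 for notum1b, -0.54 for axin1 and 0.13 for ctnnb1 in HRAS, and -0.02 for axin2 in RFP. The interaction became -0.58 for notum1b, -0.61 for axin1 and 0.15 for ctnnb1. Against RFP DMSO, 7 dpci became 0.73 for axin2 and 0.35 for axin1; against HRAS DMSO, -5.1 for notum1b, -1.11 for lef1, -0.19 for axin1 and -0.15 for ctnnb1. By construction, this leaves out the shift that TMM removes; all genes then split 6084 higher and 1812 lower for HRAS in DMSO, against 3991 and 3630, and 254 and 3218 for rapamycin in HRAS, against 936 and 1011. DESeq2 called 1 list gene in the interaction, against 0; the cause was not tested.

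With the replicate number as a block, the list genes called for rapamycin in HRAS went from 10 to 6, and axin2 (HRAS in rapamycin) and wnt9b (rapamycin in HRAS) lost their calls; among the named list genes, WNT9A in HRAS under rapamycin, both FZD3 genes under rapamycin in HRAS and cd44a at 7 dpci did too, at adjusted p from 0.0586 to 0.0733. Same-numbered libraries correlated from -0.34 to 0.17 in their deviations. With so few libraries in a group, these values cannot tell whether same-numbered libraries were handled together, and the labels do not say.

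Leaving out 1 library at a time, the list genes called ran from 5 to 25 for HRAS in rapamycin, 1 to 11 for rapamycin in HRAS, and 18 to 30, 16 to 25 and 11 to 23 for 7 dpci against RFP DMSO, HRAS DMSO and HRAS rapamycin. The calls over all genes moved too: without HRAS rapamycin replicate 3 they went from 2909 to 4864 for HRAS in rapamycin. For rapamycin in HRAS they went from 1947 to 866. The fitted wnt9b value, which depends on the prior count and is no bound, ran from 5.58 to 8.08 for HRAS in DMSO, 6.74 to 10.31 in rapamycin, 1 to 3.51 for 7 dpci against RFP DMSO and -4.98 to -3.99 against HRAS DMSO (log2). In the last comparison axin1 ran from 0.11 to 0.24. Depth limits wnt9b outside HRAS, with at most 4 counts a group.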
